A study of Mus musculus with 15 samples.

Results

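The ATF, BATF and MAF basic leucine zipper (bZIP) factors measured here were 9 of the 21110 genes with expression values: *Atf3*, *Atf4*, *Atf5*, *Batf*, *Batf3*, *Maff*, *Mafk*, *Mafg* and *Maf*. They were chosen as named factors of these 3 families, each matched exactly to 1 gene symbol, and all 9 passed the filter on low values in every comparison. RNA came from the ears of 15 mice, 1 library a mouse. At 2 weeks 4 were wild type (WT) C57BL/6 mice and 4 were *Socs3* conditional knockout (cKO) mice, and at 10 weeks 3 were wild type and 4 were *Socs3* cKO. *Socs3* encodes a feedback inhibitor of cytokine receptors that signal through JAK kinases and STAT3. Its deletion is keratin 5-specific, in keratinocytes, so the cells of the ear outside the keratinocyte lineage keep the gene. The labels name no treatment, and all mice were kept under specific pathogen-free conditions.

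bZIP factors bind DNA as pairs. ATF3 is an immediate-early stress factor that pairs with JUN or with itself and often represses its targets, while ATF4 and ATF5 are effectors of the integrated stress response, in which phosphorylation of eIF2alpha raises their translation. ATF4 activity is therefore not read from its mRNA alone. BATF and BATF3 pair with JUN proteins and recruit IRF4 or IRF8 in lymphocytes and dendritic cells. MAFF, MAFK and MAFG are the small MAF proteins, which lack an activation domain. As pairs among themselves they repress, and with NRF2 or BACH1 they activate or repress genes of the antioxidant response. MAF (c-MAF) is a large MAF protein with an activation domain, used by macrophages, T cells, lens and hair follicle.

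The values are FPKM, fragments per kilobase of gene, scaled to the mapped reads of the library, so that levels can be compared between genes. The depth is not given. A step in the low values, the size of 1 read, gave an estimate of the reads behind a value, about 9 to 41 reads for *Batf3*, 20 to 51 for *Batf* and 53 to 2982 for *Atf3*. *Socs3* itself was at 9.71 to 10.3 FPKM in 2-week WT mice, 1.25 to 12.6 in 2-week *Socs3* cKO mice, 2.02 to 4.81 in 10-week WT mice and 29.8 to 47.7 in 10-week *Socs3* cKO mice. Its RNA was thus not lower at 10 weeks. The value covers the whole gene in all cells of the ear, so it does not check the labels, and *Socs3* cKO below means the libraries so labelled. The labels call the source keratinocytes, yet markers of other cells were present: summed over the lists, keratinocyte markers reached 7066 to 13522 FPKM, fibroblast markers 3863 to 14887 and skeletal muscle markers 589 to 4372. Library numbers run in a separate range for each group, so batch and group cannot be told apart. *Socs3* cKO replicate 1 at 2 weeks stood apart. Its GC-rich genes (at least 55.3% GC) were lower than its GC-poor genes (up to 45.8%) by 2.12 on the log2 scale, whereas the other 3 *Socs3* cKO mice of that age were at -0.18 to -0.28 and the 4 wild type mice at 0.65 to 0.73.

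Differences were tested with limma on log2(FPKM + 0.1) over all genes that reached 1 FPKM in 3 or more of the mice compared. A gene was called when the adjusted p was below 0.01 and the log2 fold change, *Socs3* cKO over wild type, was at least 1 in size. At 10 weeks 4 of the 9 factors were called higher: *Atf3*, *Maff*, *Mafk* and *Mafg*. The background was 12.5% of all genes called higher and 2.43% called lower. At 2 weeks limma called none of the 9, where 14.4% of all genes were called in either direction. At that age 3 of the 9 had an unadjusted p below 0.05, and all 3 (*Atf5*, *Mafg* and *Maf*) were lower in *Socs3* cKO. The share of all genes at that unadjusted p was not counted, here or below, so such counts are not read as an excess. The median log2 fold change of the 9 was -0.40 at 2 weeks, beside -0.21 for all genes, and 0.43 at 10 weeks, beside 0.31 for all genes.

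**Figure D1:**
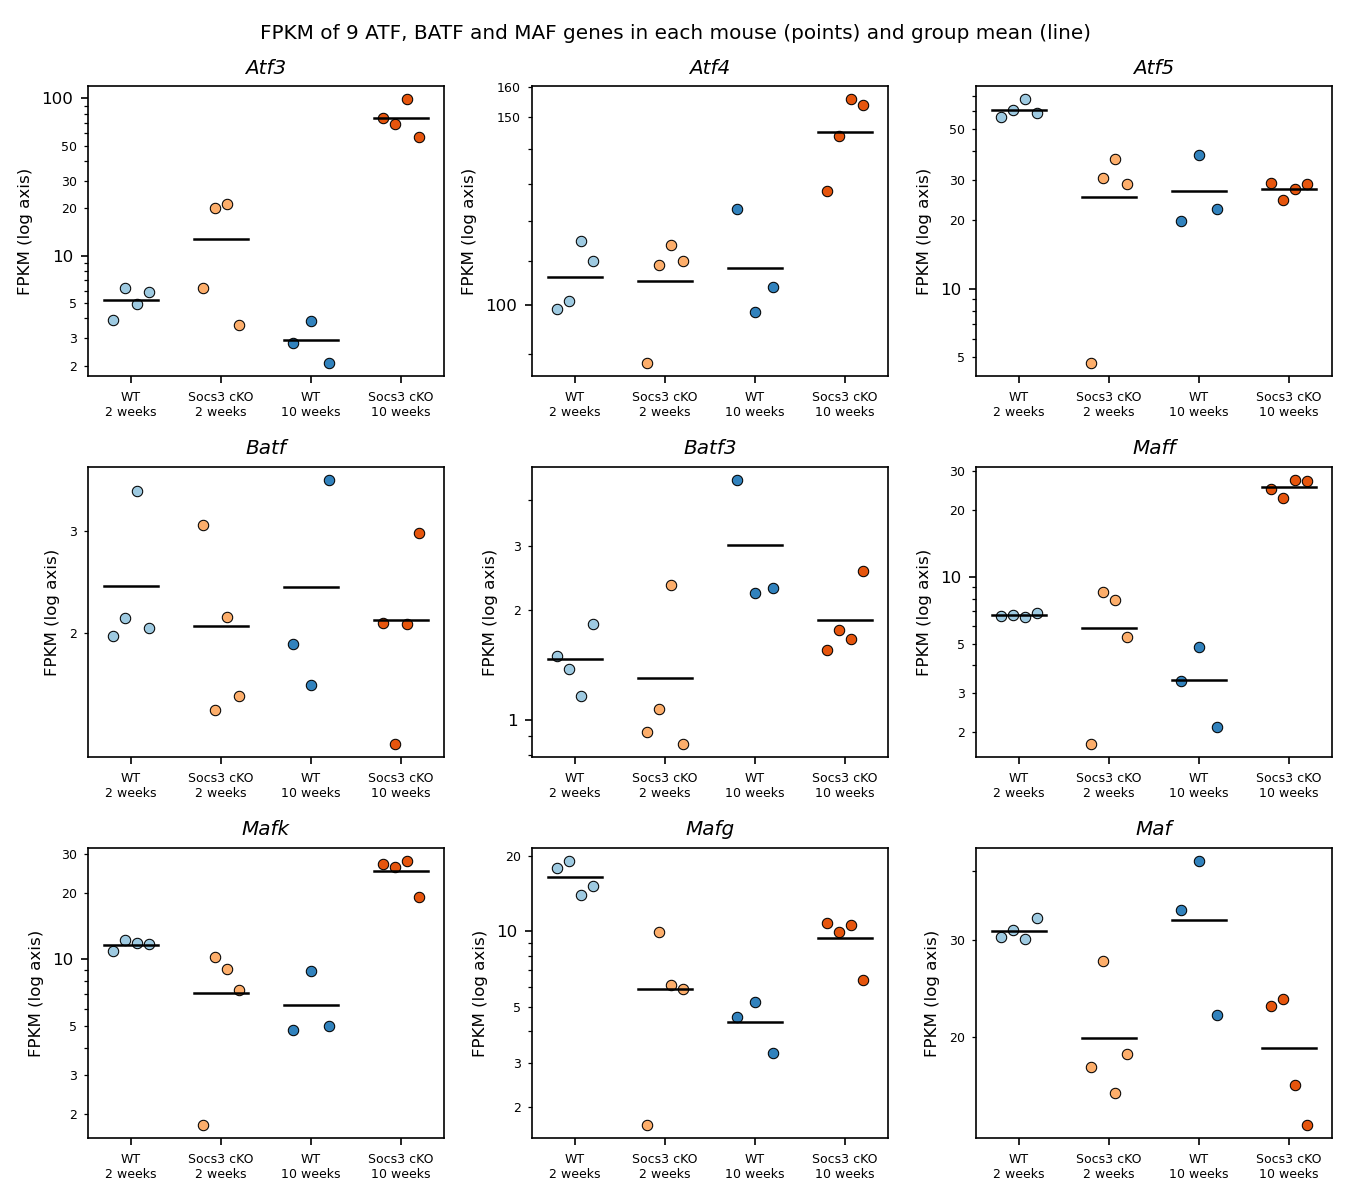
FPKM (log axis) of each factor in each of the 15 mice (points) and the group mean (line), by genotype and age. The 4 Socs3 cKO mice at 10 weeks lie above every other mouse for Atf3, Maff and Mafk, while Batf overlaps in all 4 groups.

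*Atf3* was the factor with the largest difference. It lies on chromosome 1 of mm9 from 192994175 to 193007219 on the minus strand, 61352 bases from *Batf3*, which is transcribed toward it from 192922293 to 192932822. Its level at 10 weeks was 2.81, 3.87 and 2.08 FPKM in WT mice and 75.1, 68.8, 98.9 and 56.9 in *Socs3* cKO. The lowest mutant value lay more than 10 times above the highest WT value. The log2 fold change was 4.65 (SE 0.25, adjusted p = 6.19e-06 with limma), or 25.1-fold on the log2(FPKM + 0.1) scale. At 2 weeks the FPKM was 3.93, 6.25, 4.93 and 5.85 in WT mice and 6.28, 20.1, 21.4 and 3.62 in *Socs3* cKO. A pair of the *Socs3* cKO mice was well above WT mice and a pair was not. Its log2 fold change was 0.94 (SE 0.55, adjusted p = 0.178 with limma), and the coefficient of variation was 71.6% in *Socs3* cKO against 19.7% in WT mice. *Fos*, the best known immediate-early partner of JUN, was at 39.7, 204, 228 and 8.38 FPKM in the same order of *Socs3* cKO replicates and at 11.9 to 15.6 in WT mice. Replicates 2 and 3 were again the highest, and replicate 1 was also above WT mice.

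The promoters of the 4 factors called at 10 weeks are shown because these genes were higher together. Windows of 300 bases, 250 before to 50 after a transcript start, came from RefSeq (GRCm38.p6). They were given for 8 of the 9 factors, and all 11 windows were found unchanged in mm9, whose coordinates are used below. The stretches end before the start of the gene in mm9, except for *Mafk*, where 30 bases around its match are given. A set of 5 motifs was searched on both strands, and capitals mark their matches (the *Maff* stretch is from the second of its 3 windows):
Atf3, chr1:193007220-193007462, minus strand: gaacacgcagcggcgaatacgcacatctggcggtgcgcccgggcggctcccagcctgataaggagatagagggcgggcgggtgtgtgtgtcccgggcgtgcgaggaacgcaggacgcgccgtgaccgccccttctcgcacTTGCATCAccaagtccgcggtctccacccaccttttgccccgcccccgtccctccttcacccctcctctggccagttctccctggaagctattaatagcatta
Maff, chr15:79177700-79177949, plus strand: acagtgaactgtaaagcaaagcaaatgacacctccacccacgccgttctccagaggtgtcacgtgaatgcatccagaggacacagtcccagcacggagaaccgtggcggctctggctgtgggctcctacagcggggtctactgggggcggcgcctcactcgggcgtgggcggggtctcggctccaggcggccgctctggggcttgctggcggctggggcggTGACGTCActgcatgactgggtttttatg
Mafk, chr5:140267467-140267496, plus strand: gatcccggaaGCGGTGTCAgtactggggag
Mafg, chr11:120494915-120495111, minus strand: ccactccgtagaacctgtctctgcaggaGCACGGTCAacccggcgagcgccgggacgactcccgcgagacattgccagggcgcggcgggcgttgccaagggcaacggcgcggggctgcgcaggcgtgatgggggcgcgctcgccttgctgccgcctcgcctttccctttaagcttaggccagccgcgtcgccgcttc

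The palindromic cyclic AMP response element (CRE), TGACGTCA, which ATF and CREB factors bind, was found in the second of the 3 *Maff* windows, 29 bases before the start, and in 1.79% of all 32851 promoter windows. A STAT element, TTCNNNGAA, lay 28 bases into the transcript of the same window and was found in 8.3% of windows. In the first *Maff* window the core of the antioxidant response element, TGACNNNGC, which NRF2 binds with a small MAF protein, lay 112 bases before the start. The same core matched 222 bases before the start of *Mafg*, and it was found in 12.4% of windows. It also matched 13 bases before the RefSeq start of *Mafk*, a place inside the gene as annotated in mm9. The C/EBP-ATF element TGATGNAA, bound by ATF4 with a C/EBP protein, was found in reverse 110 bases before the start of *Atf3* and in 3.97% of windows. *Batf3* had a STAT element 239 bases before its start. The AP-1 element TGANTCA (7.81% of windows) was found in none of the 11 windows, and the windows of *Atf4*, *Atf5* and *Batf* held none of the 5 motifs. A match is a match of letters only.

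The small *Maf* genes were measured next. *Maff* (chromosome 15, 79177971 to 79189502) was at 3.42, 4.83 and 2.12 FPKM in WT mice at 10 weeks and at 24.9, 22.7, 27.3 and 27.0 in *Socs3* cKO. The groups were far apart, and the 4 *Socs3* cKO mice varied by 8.3% (coefficient of variation). The log2 fold change was 2.92 (SE 0.26, adjusted p = 0.000106 with limma). At 2 weeks *Maff* was at 6.70, 6.75, 6.62 and 6.86 FPKM in WT mice and at 1.77, 8.55, 7.91 and 5.38 in *Socs3* cKO. Here the groups overlapped, and the lowest value was that of replicate 1. Its log2 fold change of -0.40 (SE 0.45, adjusted p = 0.459 with limma) became 0.08 without that mouse.

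*Mafk* (chromosome 5, 140267467 to 140278607) was at 4.82, 8.88 and 5.01 FPKM in WT mice at 10 weeks and at 27.0, 26.1, 27.7 and 19.1 in *Socs3* cKO. The lowest *Socs3* cKO mouse was still above the highest wild type mouse. The log2 fold change was 2.03 (SE 0.25, adjusted p = 0.000542 with limma). At 2 weeks WT mice were at 10.9, 12.2, 11.8 and 11.7 FPKM and the *Socs3* cKO mice at 1.79, 10.2, 9.06 and 7.30. All 4 *Socs3* cKO mice were below WT mice (exact permutation p = 0.0286, the smallest that 4 against 4 mice allow), with a log2 fold change of -0.96 (SE 0.49, adjusted p = 0.129 with limma). With each library's dependence on gene length and GC content taken out, that value was 0.01.

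*Mafg* (chromosome 11, 120486431 to 120494914) had its highest level in WT mice at 2 weeks. In WT mice it was at 17.9, 19.0, 13.9 and 15.1 FPKM at 2 weeks and at 4.57, 5.23 and 3.28 at 10 weeks. In *Socs3* cKO it was at 1.69, 9.94, 6.10 and 5.86 FPKM at 2 weeks and at 10.8, 9.94, 10.6 and 6.41 at 10 weeks. *Socs3* cKO was therefore below WT mice at 2 weeks and above them at 10 weeks, without overlap in either case in FPKM. With the length and GC trend removed, the log2 fold change was -0.66 at 2 weeks and 0.55 at 10 weeks. Its log2 fold change was -1.69 at 2 weeks (SE 0.47, adjusted p = 0.0199 with limma) and 1.09 at 10 weeks (SE 0.25, adjusted p = 0.00874 with limma). The call at 10 weeks was close to the threshold. It was lost without wild type replicate 1 (1.14, adjusted p = 0.0262 with limma) or 3 (0.91, adjusted p = 0.0384) and without *Socs3* cKO replicate 1 (1.02, adjusted p = 0.0284), 2 (1.06, adjusted p = 0.0261) or 3 (1.03, adjusted p = 0.0257). At 2 weeks *Mafg* was called lower without *Socs3* cKO replicate 1 (-1.19, adjusted p = 0.00119 with limma) or replicate 2 (-2.02, adjusted p = 0.00722). *Mafg* shares 124 exon bases with *Sirt7* on the same strand, and *Mafk* shares 169 with *Tmem184a* on the opposite strand. The library kit does not mark strand, so reads of these bases cannot be told apart.

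**Figure D2:**
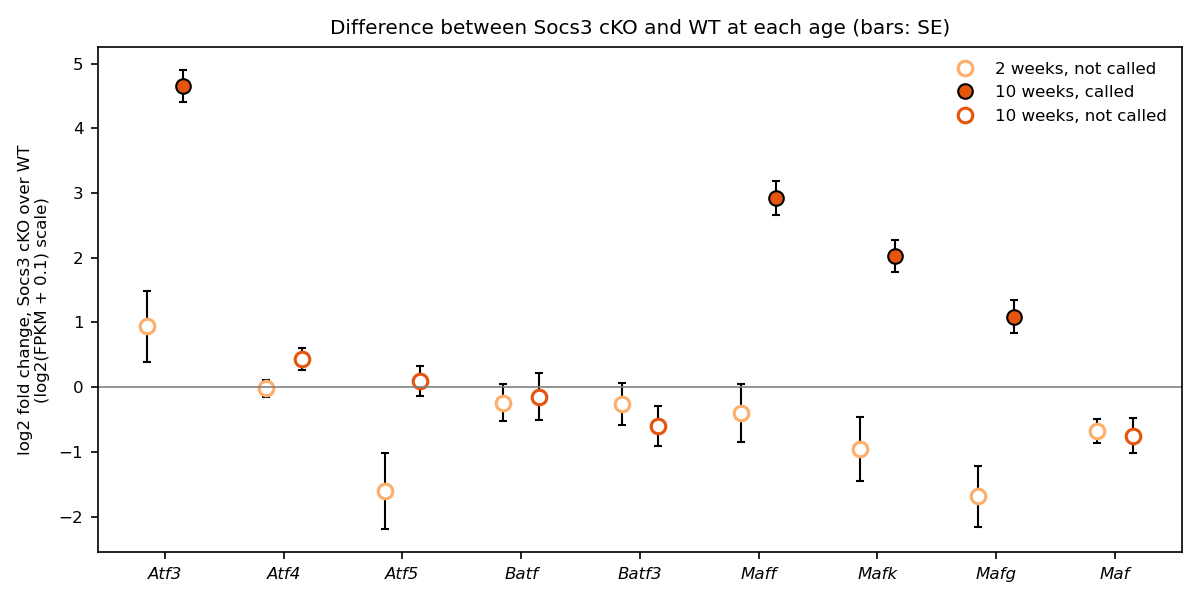
Log2 fold change of Socs3 cKO over WT mice for the 9 factors at 2 and 10 weeks (points, filled where called) with the SE from limma (bars). Atf3, Maff, Mafk and Mafg are filled at 10 weeks, from 4.65 down to 1.09, and no point is filled at 2 weeks.

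Because FPKM is per length, the 3 small *Maf* genes can be added within a mouse, and their shares do not depend on the scaling between libraries. The sum was 34.8 ± 2.43 FPKM (SD, n = 4) in WT mice and 18.9 ± 10 (n = 4) in *Socs3* cKO at 2 weeks, and 14.1 ± 4.4 (n = 3) and 59.9 ± 5.65 (n = 4) at 10 weeks. The pool was thus smaller in *Socs3* cKO at 2 weeks (exact permutation p = 0.0286, 2-sided) and was higher in every *Socs3* cKO mouse than in any WT mouse at 10 weeks (exact permutation p = 0.0571, the smallest that 3 against 4 mice allow). With the length and GC trend removed, the sums at 2 weeks were 22.8 ± 1.31 in WT mice and 21.2 ± 5.68 in *Socs3* cKO.

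The makeup of the pool also differed between the genotypes. In WT mice at 2 weeks *Maff* made up 18.9, 17.8, 20.5 and 20.4% of the sum, and in *Socs3* cKO 33.6, 29.8, 34.3 and 29%. The mean share was 19.4 ± 1.29% and 31.7 ± 2.66% (SD, n = 4 each), and the groups did not overlap (exact permutation p = 0.0286). Replicate 1, whose summed FPKM was only 5.25, had a *Maff* share within the range of the other *Socs3* cKO mice. At 10 weeks the *Maff* share was 26.7, 25.5 and 20.3% in WT mice and 39.7, 38.7, 41.7 and 51.4% in *Socs3* cKO (means 24.2 ± 3.4 and 42.9 ± 5.8%, exact permutation p = 0.0571). With the length and GC trend removed, the mean *Maff* share was 20.8 and 31.6% at 2 weeks and 21.0 and 44.1% at 10 weeks. The *Mafk* share was between 30.8 and 48.1% in every mouse. The *Mafg* share had the highest mean in WT mice at 2 weeks (47.1 ± 3.67%) and the lowest in *Socs3* cKO at 10 weeks (15.6 ± 2.32%).

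**Figure D3:**
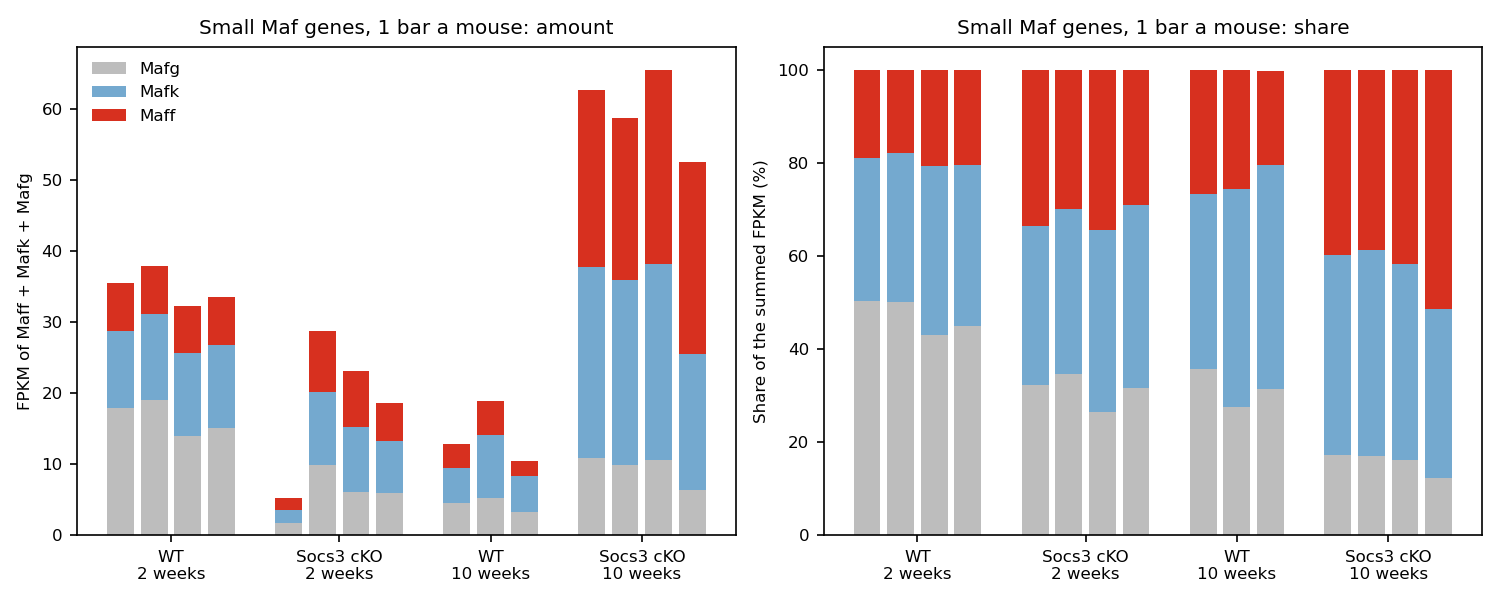
Summed FPKM of Maff, Mafk and Mafg (left) and the share of each in the sum (right, %), 1 bar a mouse in replicate order within each group. The Socs3 cKO bars at 10 weeks reach 52.5 to 65.5 FPKM, and the Maff part fills 38.7 to 51.4% of them.

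*Atf4* (chromosome 15, 80085614 to 80087970) had the highest level of the 9 in every group and changed little. At 10 weeks it was at 123, 98.5 and 104 FPKM in WT mice and at 128, 144, 156 and 154 in *Socs3* cKO. The *Socs3* cKO mice were all higher, by 1.35-fold, which did not pass the test (log2 fold change 0.43, SE 0.17, adjusted p = 0.0664 with limma). With median-of-ratios scaling, which moved the median log2 fold change of all genes at 10 weeks from 0.31 to -0.01, its value was 0.10. At 2 weeks it was at 99.3 to 115 FPKM in WT mice and at 88.3 to 114 in *Socs3* cKO, with a log2 fold change of -0.02 (SE 0.13).

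*Atf5* (chromosome 7, 52067627 to 52072028) was higher in WT mice at 2 weeks than in any other group. It was at 56.6, 60.7, 67.9 and 58.8 FPKM there and at 4.70, 30.5, 37.0 and 28.7 in *Socs3* cKO of the same age. The groups did not overlap (exact permutation p = 0.0286), and the log2 fold change was -1.61 (SE 0.59, adjusted p = 0.0499 with limma). Without replicate 1 it was -0.93, and with the length and GC trend removed it was -0.39. *Atf5* had the highest GC content of the 9, at 61.7%. At 10 weeks it was at 19.7, 38.6 and 22.3 FPKM in WT mice and at 29.1, 24.4, 27.3 and 28.7 in *Socs3* cKO, which overlapped (log2 fold change 0.09, SE 0.23). It shares 82 exon bases each with *Il4i1* and *Nup62* on the opposite strand.

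The lists tied to ATF4 were read beside these levels, with counts and medians only. The eIF2alpha list holds the kinases, the phosphorylated subunit and the phosphatase subunits, and 3 of its 7 genes were called higher at 10 weeks: *Ppp1r15a* (GADD34, which recruits the phosphatase), at 51.2 ± 7.98 against 12.2 ± 0.331 FPKM, *Eif2s1* (eIF2alpha), at 25.6 ± 3.92 against 10.5 ± 3.59, and the kinase gene *Eif2ak1*, at 17.3 ± 2.19 against 8.27 ± 1.43 (SD, n = 4 and 3). Of all genes 12.5% were called higher at that age. The median log2 fold change of the list was 0.98 beside 0.31 for all genes. *Ppp1r15a* was called in all 17 alternatives. *Eif2s1* was lost without wild type replicate 1 or *Socs3* cKO replicate 2, and *Eif2ak1* without wild type replicate 1 or 3 or *Socs3* cKO replicate 3, at log2 fold changes that ranged over all alternatives from 0.69 to 1.53 and from 0.44 to 1.19. Quantile normalization and removal of the length and GC trend each lost both, leaving 1 of 7, and *Eif2ak1* was also lost with a pseudocount of 1 and with median-of-ratios scaling.

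Of 36 target genes of ATF4, 3 of the 35 tested were called higher at 10 weeks and none lower. Of all genes 12.5% were called higher and 2.43% lower at that age. The median log2 fold change of the targets was 0.27 beside 0.31 for all genes. The 3, named after their values were seen, were *Sesn2* (a stress inhibitor of mTORC1), *Ddit4* (another such inhibitor) and *Ppp1r15a*. The 3 became 1 without wild type replicate 3 or with all groups in one fit. Median-of-ratios scaling called 3 higher and 2 lower, with a median of -0.03. At 2 weeks 4 of 34 were called higher and 2 lower, where 14.4% of all genes were called in either direction. The 4 and 2 became 2 and 1 without wild type replicate 1 or 4. *Nupr1*, a stress-induced chromatin protein, was higher (418 ± 121 against 116 ± 5.39 FPKM), as were *Psph* of serine synthesis (48.4 ± 13.8 against 18.0 ± 1.25), *Vldlr* and *Asns*, the last pair named after their values were seen. *Chac1*, which degrades glutathione, was lower (1.29 ± 0.564 against 6.77 ± 1.92 FPKM), as was *Aldh18a1* of proline synthesis (9.27 ± 3.48 against 21.9 ± 0.793). The *Chac1* call was lost without wild type replicate 2, that of *Psph* without wild type replicate 1 or 4, and that of *Aldh18a1* without any 1 of the WT mice or *Socs3* cKO replicate 3 or 4. *Ddit3* (CHOP), a defining target that was also named after its value was seen, was at 24.4 ± 4.9 FPKM in *Socs3* cKO and 25.8 ± 3.65 in WT mice at 10 weeks.

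Of the 14 genes of the unfolded protein response, 2 were called higher at 10 weeks, where 12.5% of all genes were. They were the endoplasmic reticulum chaperones *Hspa5* (215 ± 25.8 against 104 ± 21.4 FPKM) and *Hyou1* (10.2 ± 1.29 against 4.78 ± 1.42). Neither was called with median-of-ratios scaling. *Hspa5* was also lost without wild type replicate 3 or *Socs3* cKO replicate 1 or 4, and *Hyou1* without wild type replicate 1 or 3 or *Socs3* cKO replicate 1, 2 or 3. In the mitochondrial unfolded protein response, which ATF5 is known for, limma called none of 7 genes at either age, and 3 at 2 weeks and 4 at 10 weeks had an unadjusted p below 0.05.

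*Batf* (chromosome 12, 87027619 to 87050037) was low and overlapped between the genotypes at both ages. At 2 weeks it was at 1.97, 2.12, 3.52 and 2.04 FPKM in WT mice and at 3.07, 1.47, 2.13 and 1.55 in *Socs3* cKO. At 10 weeks it was at 1.91, 1.62 and 3.68 and at 2.08, 1.28, 2.07 and 2.98. The log2 fold change was -0.24 (SE 0.29) at 2 weeks and -0.15 (SE 0.36) at 10 weeks. About 20 to 51 reads stand behind each of these values, and no difference was detectable at this depth.

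*Batf3* is needed for the dendritic cells that carry XCR1 and CLEC9A. It was at 1.49, 1.38, 1.16 and 1.83 FPKM in WT mice at 2 weeks and at 4.54, 2.23 and 2.30 at 10 weeks. In *Socs3* cKO it was at 0.92, 1.07, 2.34 and 0.86 FPKM at 2 weeks and at 1.55, 1.76, 1.66 and 2.55 at 10 weeks. The genotypes overlapped at both ages, and the log2 fold change was -0.26 (SE 0.32) at 2 weeks and -0.60 (SE 0.31, adjusted p = 0.147 with limma) at 10 weeks. Only 1 gene of the files, *Fam71a*, lies between *Batf3* and *Atf3*, and at 10 weeks *Batf3* was called in neither direction.

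Markers of dendritic and Langerhans cells were higher in *Socs3* cKO at 10 weeks for all 9 tested, with a median log2 fold change of 1.56. Of these, *Flt3*, *Zbtb46* and *Ccr7* (named after their values were seen) averaged 0.447, 0.42 and 0.352 FPKM in WT mice. They passed the filter through the *Socs3* cKO mice, so their direction was partly set by the filter. With no filter 11 markers were tested and 6 called higher. The summed markers were at 848 to 1016 FPKM in WT mice at 10 weeks and 1666 to 2593 in *Socs3* cKO, and no marker was at 0 in all mice of a group. With the filter 7 of 9 were called higher (4 without wild type replicate 1 or 3 or *Socs3* cKO replicate 1), where 12.5% of all genes were. *Cd207* (langerin) was at 8.89 to 13.7 and 29.4 to 47.1 FPKM. *Xcr1* was at 0.66 to 1.14 FPKM in WT mice and 0.354 to 0.472 in *Socs3* cKO, lower without overlap but under the filter, and *Clec9a* at 0 to 0.0743 and 0.0587 to 0.887. These 3 were named after their values were seen. Of the IRF partners, *Irf8* was called higher at 10 weeks, at 3.99 ± 0.883 against 1.26 ± 0.0538 FPKM (log2 fold change 1.56, SE 0.24, adjusted p = 0.0015 with limma), and *Irf4* was at 1.2 ± 0.152 against 0.816 ± 0.146. In bulk RNA fewer cells of a type and less RNA per cell cannot be told apart.

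*Maf* (chromosome 8, 118206842 to 118231694) had a lower mean in *Socs3* cKO at both ages, and neither difference was called. At 2 weeks it was at 30.3, 31.2, 30.1 and 32.9 FPKM in WT mice and at 17.6, 27.5, 15.8 and 18.6 in *Socs3* cKO. The groups did not overlap (exact permutation p = 0.0286), but the log2 fold change of -0.68 (SE 0.18, adjusted p = 0.0178 with limma) missed both the size and the adjusted p set for a call. At 10 weeks it was at 34.0, 41.7 and 21.9 FPKM and at 22.7, 23.4, 16.3 and 13.8, which overlapped through wild type replicate 3. Its log2 fold change was -0.75 (SE 0.27, adjusted p = 0.0484 with limma). It was called lower with median-of-ratios scaling (-1.08, adjusted p = 0.00657 with limma) and with the length and GC trend removed (-1.57, adjusted p = 0.000583). *Maf* had the lowest GC content of the 9 (47.4%) and the longest exons (8241 bases). It shares 440 exon bases with *Gm15655* on the opposite strand, and 2.1% of its 31-base words occur more than once in the genome, against at most 0.7% for the other 8.

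Macrophages and T cells use *Maf*, and the summed markers of both were higher in *Socs3* cKO at both ages. Single markers went both ways. Of all genes 12.5% were called higher at 10 weeks and 14.4% in either direction at 2 weeks. The summed macrophage markers were at 524 to 922 FPKM in WT mice and 941 to 1568 in *Socs3* cKO at 10 weeks, with 6 of 12 called higher, and at 389 to 441 and 500 to 952 at 2 weeks, with none of 12 called by limma and 5 at an unadjusted p below 0.05. The 6 became 3 without wild type replicate 3, with median-of-ratios scaling or with the length and GC trend removed. T cell markers summed to 43.2 to 51.8 and 57.4 to 80.2 FPKM at 10 weeks, with 3 of 9 called higher, and to 25.1 to 36.0 and 43.7 to 69.3 at 2 weeks, with 3 of 8 called higher and 1 lower. At 10 weeks none of them was called by limma without wild type replicate 3 or *Socs3* cKO replicate 2, and 1 without wild type replicate 1 or *Socs3* cKO replicate 1 or 3. At 2 weeks none was called without any 1 of the WT mice or *Socs3* cKO replicate 3. *Cd4*, named after its value was seen, was the T cell marker called lower at 2 weeks (log2 fold change -1.28), and it was called higher at 10 weeks (1.32). The most abundant macrophage marker, *Lyz2*, had a mean of 564 ± 191 FPKM in *Socs3* cKO and 255 ± 79.5 in WT mice at 10 weeks. It was not called (adjusted p = 0.0136 with limma). The next most abundant, *C1qc* and *C1qb*, were at 123 ± 35.4 against 131 ± 42.2 and at 112 ± 29.4 against 106 ± 34.9. *Cd3g* of T cells was at 22.6 ± 6.39 and 20.9 ± 0.805. *Cd3d* and *Lck*, named after their values were seen, had log2 fold changes of -0.48 and -0.33 at 10 weeks, neither called.

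The effect of the genotype was then compared between the ages, with the interaction term of a fit on all 4 groups (10 weeks minus 2 weeks). It was called at adjusted p below 0.01 for *Atf3* (3.71, SE 0.67, adjusted p = 0.00104 with limma), *Maff* (3.32, SE 0.56, adjusted p = 0.00071), *Mafk* (2.98, SE 0.60, adjusted p = 0.00199) and *Mafg* (2.79, SE 0.58, adjusted p = 0.00227), where 18.5% of all genes were called in that direction. All 4 stayed called in 9 of 9 alternatives, at 2.89 to 3.89 for *Atf3*, 2.44 to 3.37 for *Maff*, 1.75 to 3.02 for *Mafk* and 1.25 to 2.83 for *Mafg*, and the lowest values of *Mafk* and *Mafg* came with the length and GC trend removed. For *Atf5* the term was 1.70 (SE 0.70, adjusted p = 0.0585), and without *Socs3* cKO replicate 1 at 2 weeks it was 1.02 and called (adjusted p = 0.00626 with limma). The terms of *Atf4*, *Batf*, *Batf3* and *Maf* lay between -0.35 and 0.45.

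Within each genotype the ages were compared in the same fit, which shares mice with the comparisons above. In WT mice *Mafg* fell by 1.91 on the log2 scale from 2 to 10 weeks (SE 0.42, adjusted p = 0.00232 with limma), where 19.4% of all genes were called lower and the median of all genes was -0.44. It was the only factor called, and the call was lost without wild type replicate 3 at 10 weeks (-1.72, adjusted p = 0.0162) and with the length and GC trend removed, where the difference was -0.78, under the size set for a call. Without *Socs3* cKO replicate 1 at 2 weeks 3 factors were called lower: *Mafg*, *Atf5* (-1.24, adjusted p = 7.6e-05 with limma) and *Maff* (-1.02, adjusted p = 0.00134). *Batf3* was higher at 10 weeks in WT mice without overlap (log2 difference 0.94, SE 0.34, adjusted p = 0.0332), and with median-of-ratios scaling it was called (1.34, adjusted p = 0.00585).

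In *Socs3* cKO 3 factors were called higher at 10 than at 2 weeks, where 2.01% of all genes were. These were *Atf3* (log2 difference 2.87, SE 0.45, adjusted p = 0.00113 with limma), *Maff* (2.31, SE 0.38, adjusted p = 0.00152) and *Mafk* (2.04, SE 0.41, adjusted p = 0.00593). In each of them all 4 mice at 10 weeks were above all 4 at 2 weeks. The *Mafk* call sat at the threshold. Its adjusted p was 0.0101 to 0.0103 without any 1 of the WT mice at 2 weeks (log2 difference 2.04), 0.0119 without *Socs3* cKO replicate 4 at 2 weeks (2.14), and 0.0198, 0.0195 and 0.0215 without *Socs3* cKO replicate 1, 2 or 3 at 10 weeks (2.00, 2.01 and 1.98). *Mafg* differed by 0.88 (SE 0.39, adjusted p = 0.17).

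The order of the levels changed with the group. In WT mice at 2 weeks it ran from *Atf4* (106 ± 7.36 FPKM, SD, n = 4) through *Atf5*, *Maf*, *Mafg*, *Mafk*, *Maff*, *Atf3* and *Batf* to *Batf3* (1.47 ± 0.281), and no neighbours in that order overlapped between mice. In WT mice at 10 weeks *Atf3* was 8th of 9 (2.92 ± 0.902 FPKM, n = 3), and neighbours from *Mafk* down to *Batf* overlapped. In *Socs3* cKO at 10 weeks *Atf3* was 2nd (74.9 ± 17.7 FPKM, n = 4), apart from *Atf4* above it (146 ± 12.5) and *Atf5* below it (27.4 ± 2.12). *Atf5*, *Maff* (25.5 ± 2.12), *Mafk* (25 ± 3.95) and *Maf* (19.0 ± 4.75) followed and overlapped with their neighbours. In *Socs3* cKO at 2 weeks every neighbour below *Atf5* overlapped.

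The genes whose pattern over the 15 mice was most like each factor were found among 13937 genes by the root mean square difference of centred log2(FPKM + 0.1) values. For *Atf3*, whose own spread was 1.85, they were *Cyr61* (0.45), a matricellular growth factor gene, *Zfp36* (0.50), an mRNA decay factor, and *Apold1* (0.61). *Cyr61* had a mean of 10.7 FPKM in WT mice and 261 in *Socs3* cKO at 10 weeks, and 27.4 and 38.6 at 2 weeks. As with *Atf3*, *Socs3* cKO replicates 2 and 3 at 2 weeks (66.1 and 62.0 FPKM) were above replicates 1 and 4 (12.1 and 14.3). For *Maff* (own spread 1.2) the nearest were the mitochondrial carrier gene *Slc25a25* (0.25), *Btg2* (0.26), an antiproliferative deadenylase adaptor, and the stress gene *Gadd45b* (0.34). *Slc25a25* had a mean of 2.59 FPKM in WT mice and 18.6 in *Socs3* cKO at 10 weeks. For *Mafk* (own spread 1.01) they were *Per1* (0.22) and *Bhlhe41* (0.23), both of the circadian clock, and the kinase gene *Sik1* (0.27).

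Among the factors themselves, *Mafk* was the 7th nearest gene to *Maff* (0.43) and *Maff* the 36th nearest to *Mafk*, while *Maff* was the 39th nearest to *Atf3* (0.95). *Mafg* stood elsewhere. Its nearest genes were the kinase genes *Abl1* and *Ptk2b* and *Prdm2* (0.19 each, own spread 0.92), and those of *Atf5* were *Rasip1* (0.12), *Pip4k2b* (0.17) and *Efs* (0.18, own spread 0.90). For *Maf* they were *Pwwp2a* (0.17), *Arglu1* (0.18) and *Ddx55* (0.19, own spread 0.46). *Atf4*, *Batf* and *Batf3* varied little (own spread 0.23, 0.42 and 0.58), and small distances mean less for them. Their nearest genes were *Abhd12*, *Faf1* and *Yaf2* for *Atf4*, *Calml4*, *R74862* and *Kdelr3* for *Batf*, and *Eif1*, *Sap30l* and *Prrx2* for *Batf3*.

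**Figure D4:**
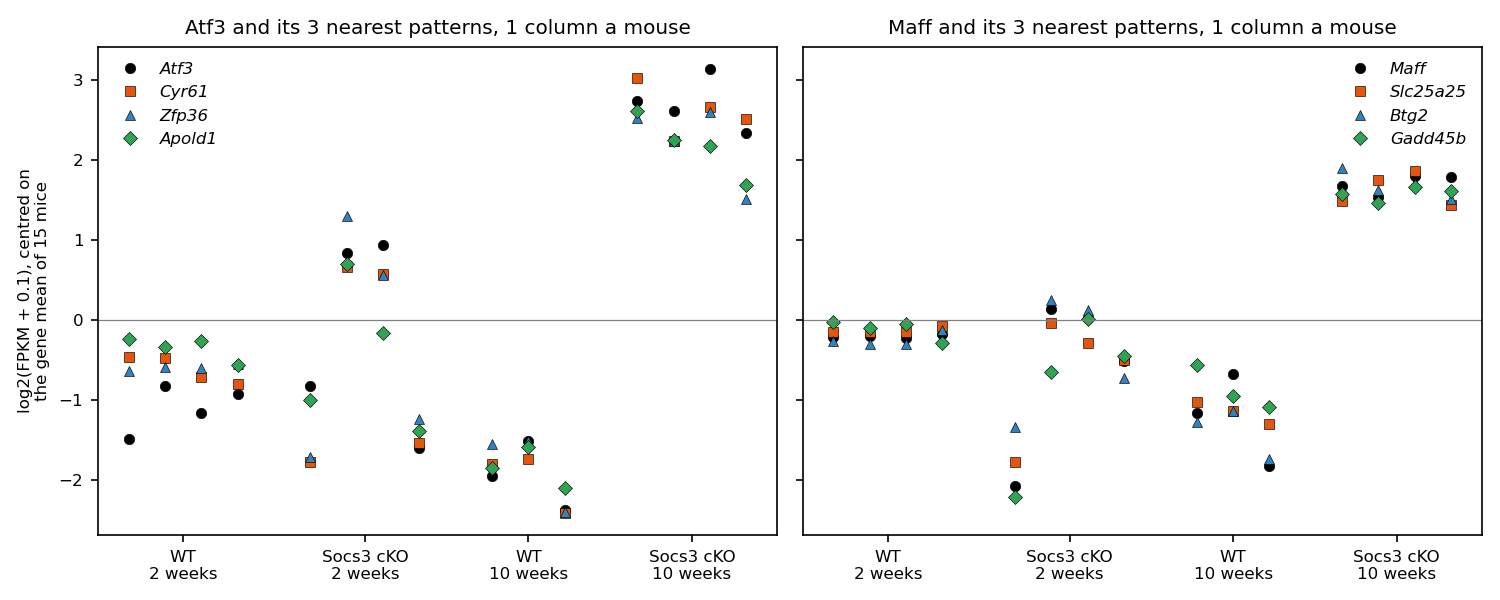
Log2(FPKM + 0.1) centred on the mean of 15 mice for Atf3 (left) and Maff (right) with the 3 genes nearest to each, 1 column a mouse. All 8 genes are highest in the 4 Socs3 cKO mice at 10 weeks, and Atf3 and its 3 genes are higher in Socs3 cKO replicates 2 and 3 at 2 weeks than in replicates 1 and 4.

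The partners of these factors were read from lists. ATF3 and the BATF proteins pair with the JUN members of the list of *Fos* and *Jun* subunits. Of all these subunits, 6 of 7 were called higher at 10 weeks, where 12.5% of all genes were. The median log2 fold change of the 7 was 3.48 beside 0.31 for all genes. The largest were *Fosl1* (42.6 ± 14.8 against 0.078 ± 0.0964 FPKM), *Fosb* (88.4 ± 32.9 against 1.64 ± 1.1), *Fos* (159 ± 40.9 against 5.41 ± 3.7) and *Junb* (325 ± 28.1 against 30.1 ± 10.8). *Fosl1* passed the filter through the *Socs3* cKO mice alone, and with no filter 6 of 7 were again called higher. At 2 weeks limma called *Fosl2*, named after its value was seen, lower (14.1 ± 5.68 against 36.9 ± 1.86 FPKM) and no subunit higher. No subunit was called lower without any 1 of the WT mice or *Socs3* cKO replicate 3 or 4, or with the length and GC trend removed, and 1 was called higher without *Socs3* cKO replicate 4.

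Of the other ATF and CREB factors, 5 of 14 were called higher at 10 weeks, where 12.5% of all genes were. The median was 0.57 beside 0.31 for all genes. The 5 became 3 without wild type replicate 1 or 3, with the length and GC trend removed or with all groups in one fit, and 2 with quantile normalization. *Atf7* was at 3.20 ± 0.973 against 0.373 ± 0.0517 FPKM and *Creb3l2* at 4.21 ± 1.12 against 0.861 ± 0.263, and both were called in all alternatives. Both, and *Creb5* below, averaged under 1 FPKM in WT mice and passed the filter through the *Socs3* cKO mice. Their direction was thus partly set by the filter. With no filter 4 of 15 were called higher. *Jdp2*, a repressor that pairs with JUN and ATF proteins, was at 13.0 ± 2.78 against 4.82 ± 1.13 FPKM and was lost without wild type replicate 1 or 3. *Creb5* was low (1.12 ± 0.447 against 0.247 ± 0.108 FPKM) and was lost without any 1 of the WT mice, and the fifth was *Atf6*, a sensor of the unfolded protein response that was named after its value was seen. At 2 weeks 2 of 14 were called lower, where 14.4% of all genes were called in either direction. They were *Creb3l1* and *Creb3l3* (named after their values were seen), of which the first was at 14.2 ± 6.33 against 53.3 ± 4.97 FPKM. The count called lower was 0 without any 1 of the WT mice or *Socs3* cKO replicate 3, 1 without replicate 4, 4 without replicate 1 and 5 with all groups in one fit. Of the C/EBP factors, which pair with ATF4, *Cebpd* was called higher at 10 weeks (58.3 ± 8.61 against 8.08 ± 1.82 FPKM). It was 1 of 5 tested, a count not read as an excess over the 12.5% of all genes.

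Of the partners of the small MAF proteins, 1 of 4 was called higher at 10 weeks, a count not read as an excess over the 12.5% of all genes. It was the repressor gene *Bach1*, named after its value was seen (24.4 ± 5.08 against 7.24 ± 2.84 FPKM). With the length and GC trend removed none of the 4 was called by limma. *Nfe2l2*, which encodes NRF2, was at 40.5 ± 5.18 against 24 ± 3 FPKM, below the size set for a call (log2 fold change 0.75, SE 0.17, adjusted p = 0.00824 with limma). At 2 weeks *Bach2* was called lower (0.554 ± 0.363 against 1.76 ± 0.134 FPKM), a call lost without any 1 of the WT mice or *Socs3* cKO replicate 3 or 4. Of 21 target genes of NRF2 and small MAF proteins, 4 were called higher at 10 weeks, where 12.5% of all genes were. They were *Gclc*, *G6pdx*, *Osgin1* and *Abcc1* (named after their values were seen). The median of the 21 was 0.43 beside 0.31 for all genes, and *Gclc* was close to the threshold (adjusted p = 0.00984 with limma). Of the 4 calls, 1 was left without wild type replicate 3 or *Socs3* cKO replicate 2, with median-of-ratios scaling, with quantile normalization or with the length and GC trend removed, and 2 without wild type replicate 1 or *Socs3* cKO replicate 1 or 3. At 2 weeks 3 were called higher and 1 lower, where 14.4% of all genes were called in either direction. *Gsta4* (18.8 ± 6.42 against 4.21 ± 0.7 FPKM), a glutathione transferase, and the quinone reductase *Nqo1* (25.6 ± 6.84 against 7.17 ± 0.779) were higher, as was *Gstm1* (124 ± 38.3 against 55.5 ± 2.39), while *Gclc*, the catalytic subunit of glutathione synthesis, was lower (10.7 ± 2.71 against 35.5 ± 2.64). The *Gstm1* call was lost without any 1 of the WT mice or *Socs3* cKO replicate 1 or 3. *Gclc* was thus called lower in *Socs3* cKO at 2 weeks, in all 18 alternatives. Its call as higher at 10 weeks (12.8 ± 1.84 against 3.86 ± 3.5 FPKM) is less certain, being close to the threshold with a wide spread in WT mice.

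**Figure D5:**
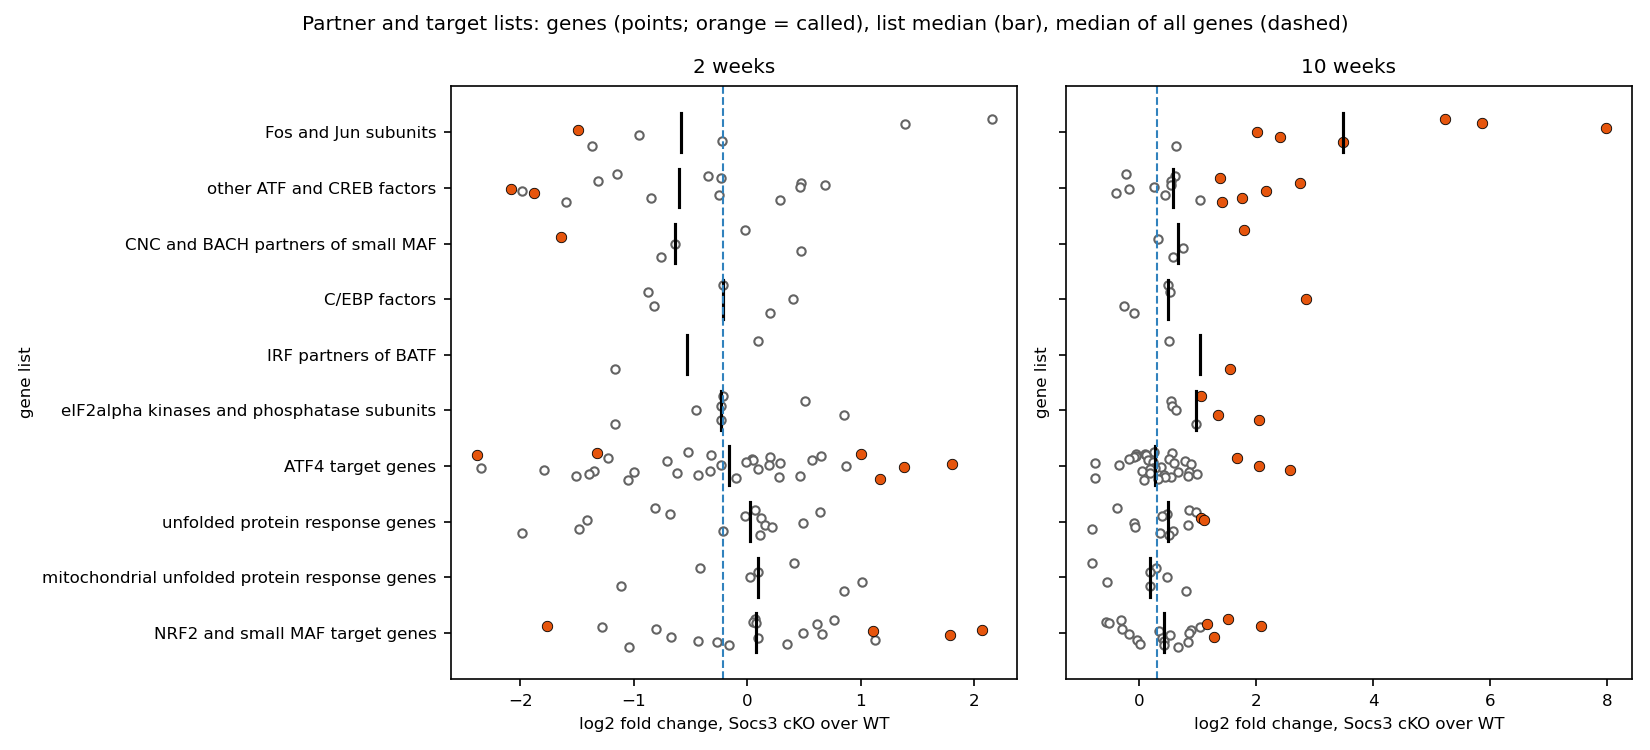
Log2 fold change of Socs3 cKO over WT mice for each gene tested (points, orange where called) in 10 lists of partners and targets, at 2 weeks (left) and 10 weeks (right), with the list median (bar) and the median of all genes (dashed). The Fos and Jun subunits have the highest median at 10 weeks, 3.48, and the other lists lie between 0.19 and 1.04.

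Cell type markers moved with the groups, and their part in the differences above was not tested. Of all genes 14.4% were called in either direction at 2 weeks, and 12.5% higher and 2.43% lower at 10 weeks. At 2 weeks skeletal muscle markers summed to 884 to 1327 FPKM in WT mice and 2235 to 4372 in *Socs3* cKO, with 7 of 10 called higher (4 without wild type replicate 1, 2 or 4 or *Socs3* cKO replicate 3). Fibroblast markers summed to 12689 to 14887 and 5119 to 7100, but single markers went both ways. Of the 7, *Col1a2*, *Col3a1* and *Col1a1* (the last named after its value was seen) were called lower. *Dcn* was called higher (2107 ± 882 FPKM in *Socs3* cKO against 838 ± 51.9). Without any 1 of the WT mice 2 were called lower and 0 higher. At 10 weeks muscle markers summed to 1452 to 2481 and 589 to 1035 FPKM, with 3 of 10 called lower (5 with median-of-ratios scaling). Cartilage markers summed to 248 to 396 and 91.8 to 243 FPKM at 2 weeks and to 116 to 153 and 117 to 259 at 10 weeks. Adipocyte markers summed to 218 to 253 and 372 to 723 FPKM at 2 weeks and to 306 to 430 and 378 to 727 at 10 weeks. Endothelial markers summed to 66.5 to 76.6 and 57.1 to 68.2 FPKM at 2 weeks and to 23.0 to 26.3 and 42.3 to 63.0 at 10 weeks, where 3 of 6 were called higher (1 with quantile normalization or with the length and GC trend removed). In sum, keratinocyte markers overlapped at both ages. They were at 9844 to 10630 and 7066 to 13522 FPKM at 2 weeks and at 7389 to 12535 and 8525 to 12650 at 10 weeks. At 2 weeks 3 of 10 were called higher, *Krt14*, *Dsg1a* and *Flg2* (2 without any 1 of the WT mice or *Socs3* cKO replicate 1, 3 or 4). At 10 weeks *Lor* was called lower (197 ± 61.8 against 1221 ± 451 FPKM, log2 fold change -2.62). *Dsg1a*, *Flg2* and *Lor* were named after their values were seen. Neutrophil markers reached at most 12.8 FPKM in sum (8.46 to 12.8 in WT mice and 4.08 to 10.0 in *Socs3* cKO at 10 weeks, with *Elane* at 0 in the latter). B cell markers reached at most 4.15, with *Pax5* at 0 in *Socs3* cKO at both ages.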

How the data were processed

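Ear RNA was sequenced as unstranded single 50-base reads (TruSeq kit, Illumina HiSeq), and the authors mapped it with TopHat2 2.1.0 to mm9. The deposited values are FPKM per gene, 1 table of 21110 genes a mouse. The submitters' processing notes also list Cufflinks, and the study tested counts with edgeR, which FPKM does not allow. Here log2(FPKM + 0.1) was tested with limma 3.58.1 (R 4.3.3; the prior variance followed mean level), over genes that reached 1 FPKM in 3 or more of the mice compared (13524 genes at 2 weeks, 13105 at 10 weeks and 13937 over all groups), and p-values were adjusted by Benjamini-Hochberg. A gene under 1 FPKM in 1 group could pass this filter through the other group alone, which partly sets the direction of its difference. Genotype comparisons were fitted within each age, and the interaction and age comparisons over all 4 groups. Shares of small *Maf* FPKM were compared by 2-sided exact permutation tests (scipy 1.17.1).

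The 9 factors and the lists were chosen with earlier results of these data known. The genes named are the 9 factors, *Socs3*, the 3 genes most like each factor, up to 4 called genes of each list with the largest change at the age with more calls, and up to 3 of the most abundant markers of each cell type, and others are marked as named after their values were seen. The steps were tested on simulated data. Positions come from GENCODE vM1 (mm9), and promoter windows from RefSeq. The alternatives were other pseudocounts, filters, scalings, prior variance, a fit of all groups, a replicate block, each mouse left out and, added after seeing the data, removal of each sample's trend with gene length and GC content (19443 of 21110 genes had a GC value). Other wild type mice of the study were not analysed here. Results of 1 gene list are not reported here.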

Additional observations from a re-analysis of the deposited data

Results flagged for a closer look

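The effect of the *Socs3* cKO genotype differed between 10 and 2 weeks for 4 factors, by the interaction term from limma: *Atf3* (3.71 on the log2 scale), *Maff* (3.32), *Mafk* (2.98) and *Mafg* (2.79).

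In 5 of 30 groups of 4 mice, 1 mouse lay farther from the others than Dixon's critical value (0.829) allows, which chance does in about 1 in 20 groups. *Batf* was at 3.52 FPKM in wild type replicate 3 at 2 weeks. *Atf4* was at 88.3 and *Atf5* at 4.70 FPKM in *Socs3* cKO replicate 1 at 2 weeks, the library with the distinct GC trend. *Mafk* was at 19.1 and *Mafg* at 6.41 FPKM in *Socs3* cKO replicate 4 at 10 weeks, each the lowest of its group.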

How the results depend on the processing

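*Atf3*, *Maff* and *Mafk* at 10 weeks were called in all 17 alternatives, at log2 fold changes of 4.27 to 4.87, 2.54 to 3.19 and 1.66 to 2.31. *Mafg* at 10 weeks was called in 3 of 10 settings and in 2 of 7 fits that left out a mouse, and it was 0.95 with a pseudocount of 1, 0.77 with median-of-ratios scaling, 0.68 with quantile normalization and 0.55 with the length and GC trend removed. The number of factors called at 10 weeks was 3 to 4 without 1 mouse. At 2 weeks it was 1 instead of 0 with quantile normalization and with all 4 groups in one fit, and 0 to 1 without 1 mouse, the 1 being *Mafg*. For age in the wild type it was 2 with median-of-ratios scaling or quantile normalization, 0 with the trend removed and 0 to 3 without 1 mouse, and for age in *Socs3* cKO 2 to 3. For the interaction it was 4 to 5. The share of calls that were higher at 10 weeks was 83.7% over all genes, 57.0% with median-of-ratios scaling, 52.7% with quantile normalization and 57.4% with the trend removed.

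Directions of small differences turned. *Atf4* at 2 weeks was 0.18 with median-of-ratios scaling, 0.38 with the trend removed, 0.02 without wild type replicate 3 and 0.06 without *Socs3* cKO replicate 1. With quantile normalization *Batf* was 0.27, *Batf3* 0.36 and *Maff* 0.06 at 2 weeks, and with the trend removed *Batf3* was 0.13, *Maff* 0.46 and *Mafk* 0.01. *Maff* at 2 weeks was -0.65 to 0.08 without 1 mouse, the highest without *Socs3* cKO replicate 1. At 10 weeks *Atf5* was -0.23 with median-of-ratios scaling, -0.21 with quantile normalization, and -0.10 and -0.01 without wild type replicate 1 or 3. *Batf* at 10 weeks was 0.11 with the trend removed, -0.38 to 0.19 without 1 mouse, the highest without wild type replicate 3, and 0.05 without *Socs3* cKO replicate 2. The cause was not tested.

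Samples with the same replicate number did not deviate together (r of -0.06 to 0.06 at 2 weeks and -0.20 to 0.04 at 10 weeks). Those with different numbers were at -0.14 to 0.09 and -0.21 to 0.16. With so few mice this cannot exclude that the numbers pair them. With the replicate block the *Maff* share differed by 12.3 percentage points at 2 weeks (exact sign-flip p = 0.125, the smallest possible) and 15.9 at 10 weeks (exact p = 0.25), where *Socs3* cKO replicate 4 has no partner. Without 1 mouse it differed by 11.4 to 13.2 points at 2 weeks (exact permutation p = 0.0571, the smallest possible) and by 15.9 to 20.1 at 10 weeks. Depth limits *Batf* and *Batf3*, with about 9 to 51 reads a mouse.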
